A study of Homo sapiens with 8 samples.

Results

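The transcripts of 10 cytokines that keratinocytes make and secrete were followed in HaCaT keratinocytes: IL6, LIF, IL11, IL19, IL20, IL24, IL17C, IL23A, CSF2 and CSF3. They were picked by name, through their Entrez gene identifiers, and made up 10 of the 17131 genes in the table, and 9 of them passed the filter on low counts. HaCaT is an established human keratinocyte line, kept here without an engineered change. Both groups received M5, a mix of 5 cytokines (TNF-α, oncostatin M, IL-1α, IL-17A and IL-22) that brings keratinocytes into a psoriasis-like state, each at 10 ng/mL for 24 h. They differed in OTS514, a small-molecule inhibitor of the kinase TOPK, given at 10 nM for 12 h beforehand and then kept on together with M5. There were 4 libraries titled M5_O5 and 4 titled M5. The labels do not settle which group received OTS514, because the titles point to M5_O5 while the treatment field lists the TOPK inhibitor for the libraries titled M5 and no treatment for those titled M5_O5. Each difference below is therefore M5_O5 relative to M5, by title. No unstimulated culture was analysed here, so how far M5 itself induced a gene is not known from these libraries. Nothing in the labels says that the 4 libraries of a group came from separate cultures, and the p-values measure only the spread between these libraries. IL6 was among the genes that the study displayed from the same libraries.

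Total counts lay between 16113014 and 16922673 in the M5_O5 libraries and between 13708044, in M5 replicate 1, and 16847581 in the M5 libraries. All 6 keratinocyte markers checked were present, with KRT17 highest, and their summed level was 12532 to 15230 TPM (a length-corrected level that sums to the same total in each library) in M5_O5 and 14444 to 15753 TPM in M5. Of 5 fibroblast markers, 4 had a mean under 1 TPM, and the sum of all 5 was mostly COL1A1 (mean 11.29 TPM). That sum was 10.3 to 10.8 TPM in M5_O5 and 13.02 to 15.3 TPM in M5. Whether any fibroblasts were present was not tested. The sums of the T cell, endothelial and melanocyte markers stayed at or below 0.95 TPM in every library. PTPRC, which marks all leukocytes, was listed at 0 in all libraries, and the leukocyte sum of 45.3 to 54.9 TPM in M5_O5 and 49.7 to 52.6 TPM in M5 was nearly all CD14. In RNA from whole cultures, fewer cells that make a transcript and less of it per cell cannot be told apart.

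These cytokines act between the epidermis and the immune system. IL-6, leukemia inhibitory factor (LIF) and IL-11 belong to the family that signals through the shared receptor chain gp130 and the transcription factor STAT3. IL-19, IL-20 and IL-24 belong to the IL-20 subfamily, whose receptors sit on keratinocytes and drive their proliferation and altered differentiation in psoriatic plaques. IL-23 keeps IL-17-producing T cells active and is a drug target in psoriasis, IL-17C acts back on epithelial cells, and the colony-stimulating factors CSF2 (GM-CSF) and CSF3 (G-CSF) promote the production, survival and activation of myeloid cells and neutrophils.

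The 10 genes did not move as a block. IL6 and LIF were higher in M5_O5 by over 2-fold, IL19 and IL20 were higher by less than 2-fold, and IL23A, IL11, IL24 and CSF3 were lower by less than 2-fold. At an adjusted p under 0.05 and at least a 2-fold difference (edgeR quasi-likelihood test), 2 of the 9 tested members were called higher, against 2.87% of the 12434 genes tested. None was called lower, against 0.330% of all genes, and the count was also 0 at an unadjusted p with edgeR and with DESeq2, while cyclic loess with limma called 1 member lower, IL23A (-1.09, adjusted p = 0.000432). Without the fold limit, 4 members passed as higher (19.5% of all genes) and 4 as lower (17.6%). The 4 libraries of one group lay wholly above those of the other for 4 members that were higher in M5_O5 (17.8% of all genes) and for 1 that was lower, IL23A (15.8%). The median log2 fold change of the tested members was -0.19, beside 0.01 for all genes tested. With scaling by library size alone the median of all genes moved to 0.13, so small differences between the groups depend on the scaling.

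**Figure D1:**
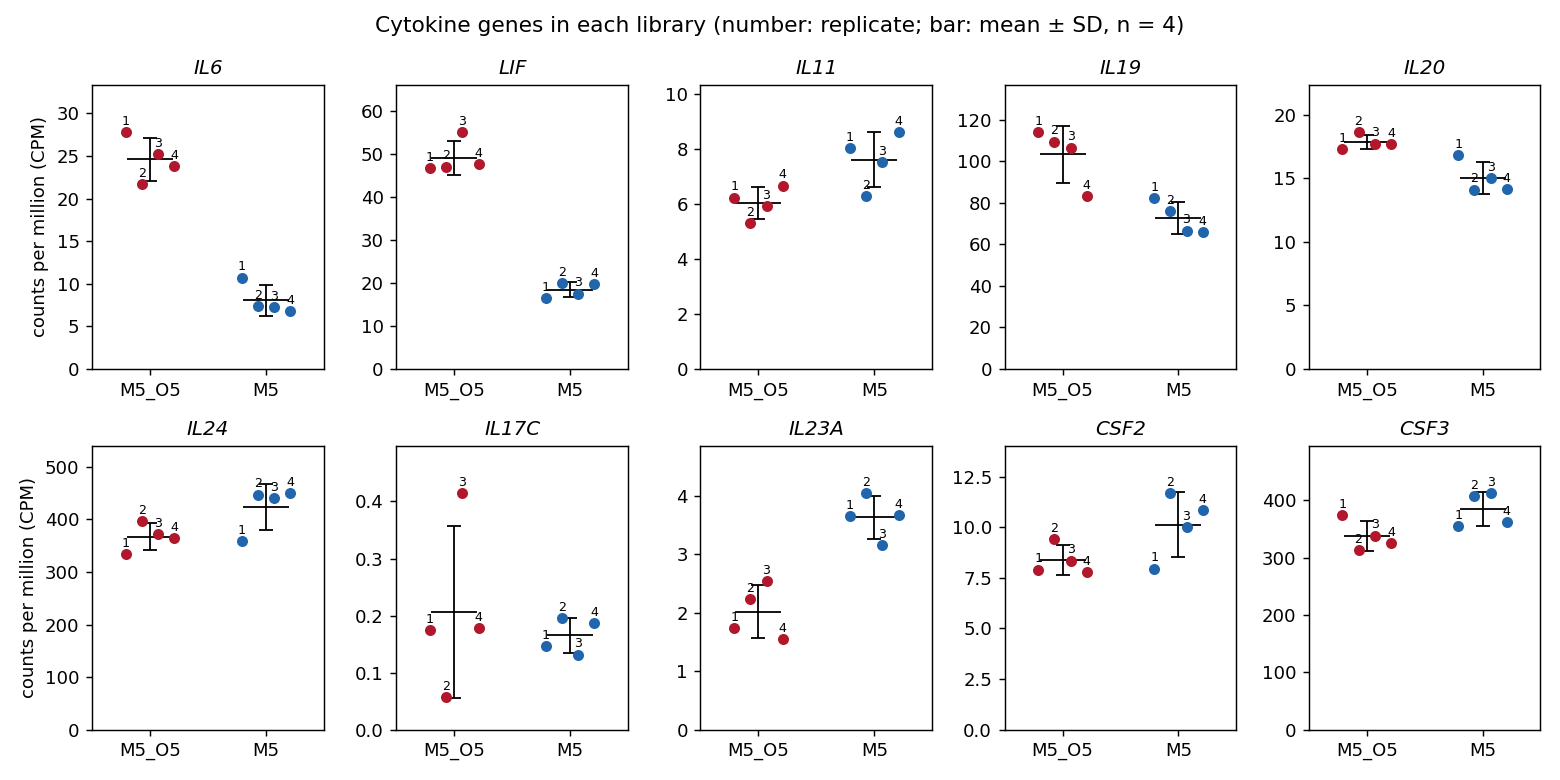
CPM (TMM-scaled counts per 1000000) of each of the 10 cytokine genes in each library, 1 panel a gene with its own axis; points are libraries and lines with bars are the mean and SD of 4 libraries. IL6 and LIF show groups that lie far apart, IL19 and IL20 show narrow gaps, IL23A lies lower in every M5_O5 library, and the groups overlap for IL11, IL24, IL17C, CSF2 and CSF3.

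In the gp130 family, IL6 and LIF were higher in M5_O5 while IL11 was not. IL6 (Entrez 3569), the best known inducer of the acute-phase response, had 27.8, 21.7, 25.2 and 23.8 CPM (counts per 1000000 after TMM scaling) in M5_O5 replicates 1 to 4 and 10.7, 7.38, 7.24 and 6.79 CPM in M5. Every M5_O5 library lay at more than double the CPM of every M5 library, and M5 replicate 1 lay above the other M5 libraries. The means were 24.6 ± 2.55 and 8.03 ± 1.81 CPM (SD, n = 4 each), a log2 fold change of 1.62 (SE 0.13, 95% confidence interval 1.35 to 1.89) or 3.08-fold, with an adjusted p of 9.76e-07 by edgeR. The exact two-sided permutation test gave p = 0.0286, the smallest value that 4 against 4 libraries allow. IL6 rested on 109 to 478 counts a library.

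LIF (Entrez 3976), which induces acute-phase genes, had 46.7, 47.0, 55.1 and 47.7 CPM in M5_O5 and 16.4, 20.05, 17.5 and 19.8 CPM in M5. The groups were far apart, and M5_O5 replicate 3 was the highest library. The means of 49.1 ± 3.97 and 18.4 ± 1.77 CPM gave a log2 fold change of 1.41 (SE 0.08, interval 1.23 to 1.59), or 2.66-fold, with an adjusted p of 7.79e-08 and the same exact p of 0.0286. IL11 (Entrez 3589), a gp130 cytokine studied in platelet production and fibrosis, had 6.22, 5.28, 5.93 and 6.66 CPM in M5_O5 and 8.03, 6.27, 7.50 and 8.60 CPM in M5. Its groups overlapped, since M5 replicate 2 lay below M5_O5 replicate 4. The log2 fold change was -0.34 (SE 0.13, interval -0.60 to -0.07), with an adjusted p of 0.0477 by edgeR and an exact permutation p of 0.0571. This call was lost when any one of 6 of the 8 libraries was left out (M5_O5 replicates 1, 2 and 3, M5 replicates 1, 3 and 4; adjusted p 0.061 to 0.155), and in DESeq2 (0.0516).

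Because ratios of genes within a library do not depend on the scaling of libraries, 9 pairs of members were also set side by side as CPM ratios, as a description with no test, since the pairs were chosen after their values were seen. IL6 stood at 3.57 to 4.47 times IL11 in the M5_O5 libraries and at 0.79 to 1.34 times IL11 in M5. LIF stood at 7.17 to 9.29 times IL11 and at 2.05 to 3.20 times IL11, respectively. Neither ratio overlapped between groups, and the differences in mean log2 ratio were 1.97 and 1.75. The IL6 to LIF ratio did overlap: it was 0.458 to 0.595 in M5_O5 and 0.343 to 0.653 in M5, a difference in mean log2 ratio of 0.22.

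**Figure D2:**
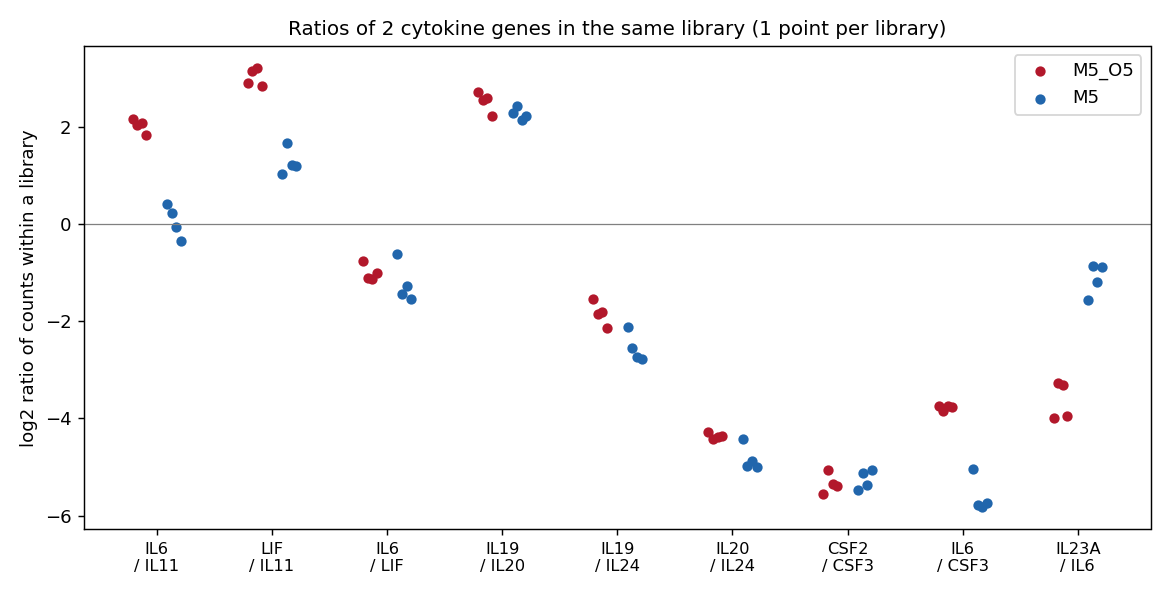
Log2 ratio of the counts of 2 cytokine genes in the same library (vertical axis) for 9 pairs of genes, 1 point a library, colored by group. The ratios of IL6 to IL11, LIF to IL11, IL6 to CSF3, IL20 to IL24 and IL23A to IL6 do not overlap between groups, while IL6 to LIF, IL19 to IL20, IL19 to IL24 and CSF2 to CSF3 overlap.

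The sequence just before the start of a cytokine gene holds sites for inducible factors, and 3 of these promoters are shown: that of IL6, the member with the largest fold change, that of IL11, its relative that was not higher, and that of IL23A, the member that was lowest. Each is the 250 bases before the RefSeq start in GRCh38.p14, read 5′ to 3′ on the gene's strand, with motif matches in capitals: IL6 at chr7:22726950-22727199 (plus strand), IL11 at chr19:55370464-55370713 (minus strand) and IL23A at chr12:56338634-56338883 (plus strand).
IL6: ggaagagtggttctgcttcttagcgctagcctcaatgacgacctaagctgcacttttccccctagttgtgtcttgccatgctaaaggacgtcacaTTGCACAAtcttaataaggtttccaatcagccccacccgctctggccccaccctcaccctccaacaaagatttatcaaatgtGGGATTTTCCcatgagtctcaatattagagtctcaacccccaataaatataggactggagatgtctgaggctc
IL11: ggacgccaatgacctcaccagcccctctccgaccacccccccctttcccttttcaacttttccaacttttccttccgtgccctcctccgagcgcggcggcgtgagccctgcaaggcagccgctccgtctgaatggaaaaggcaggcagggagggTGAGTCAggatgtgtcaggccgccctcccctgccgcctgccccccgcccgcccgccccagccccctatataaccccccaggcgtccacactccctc
IL23A: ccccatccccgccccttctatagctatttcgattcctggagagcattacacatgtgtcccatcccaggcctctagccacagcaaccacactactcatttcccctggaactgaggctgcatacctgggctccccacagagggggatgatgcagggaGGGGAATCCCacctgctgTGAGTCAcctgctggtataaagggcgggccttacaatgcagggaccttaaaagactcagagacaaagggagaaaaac
In the IL6 window the capitals are TTGCACAA, a match to the C/EBP motif TTGCNNAA, 155 to 148 bases before the start, and GGGATTTTCC, a match to the NF-κB motif, 73 to 64 bases before it. In IL11 they are an AP-1 match, TGAGTCA to the motif TGANTCA, 96 to 90 bases before the start. IL23A held both an NF-κB match, GGGGAATCCC at 95 to 86 bases, and an AP-1 match, TGAGTCA at 77 to 71 bases. Both strands of 35116 promoter windows of this length were searched, and 9.96% of them held the NF-κB motif, 6.57% the AP-1 motif, 9.05% the C/EBP motif and 6.57% the STAT motif TTCNNNGAA. The table held 9 windows for 7 of the 10 members and had no entry for LIF, CSF3 and IL17C. IL19 had an AP-1 match in one of its windows and a STAT match in the other, CSF2 had a STAT match, and these letters were not in the windows of IL20 and IL24. No match overlapped another, and a match is a stretch of letters and not a measured site.

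IL19, IL20 and IL24 lie side by side on chromosome 1, between IL10 and FCMR in the RefSeq order, and are structural relatives, yet they did not move together. IL19 (Entrez 29949) had 114, 109, 106 and 83.1 CPM in M5_O5 and 82.1, 75.8, 66.5 and 66.0 CPM in M5. The groups were separated, but only just, by M5_O5 replicate 4 and M5 replicate 1. The means were 103 ± 13.7 and 72.6 ± 7.78 CPM, and the log2 fold change was 0.51 (SE 0.09, interval 0.31 to 0.71; adjusted p = 0.000939 by edgeR, exact permutation p = 0.0286).

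IL20 (Entrez 50604), for which the receptors and the subfamily are named, had 17.3, 18.6, 17.7 and 17.7 CPM in M5_O5 and 16.8, 14.1, 15.0 and 14.1 CPM in M5. The gap between the groups was narrow. The log2 fold change was 0.25 (SE 0.08, interval 0.08 to 0.42; adjusted p = 0.0245, exact permutation p = 0.0286), and the call was lost without M5_O5 replicate 2 or any one of M5 replicates 2, 3 and 4 (adjusted p 0.0591 to 0.0875 by edgeR). IL24 (Entrez 11009), first described as a gene induced in differentiating melanoma cells, was the most abundant of the trio, with 334, 397, 372 and 365 CPM in M5_O5 and 359, 447, 440.2 and 450.2 CPM in M5. All M5 libraries but replicate 1 lay above every M5_O5 library. Its log2 fold change of -0.21 (SE 0.08, interval -0.37 to -0.05) had an adjusted p of 0.0428 by edgeR and an exact permutation p of 0.114. This call was lost when M5_O5 replicates 1, 3 or 4 or M5 replicates 2, 3 or 4 were left out (adjusted p 0.0755 to 0.129), and under library-size scaling the value was -0.09 (adjusted p = 0.280).

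Set against IL24 within each library, IL20 stood at 0.0469 to 0.0517 of its CPM in M5_O5 and at 0.0314 to 0.0468 in M5, just short of overlapping (difference in mean log2 ratio 0.46). The ratio of IL19 to IL24 was 0.228 to 0.341 in M5_O5 and 0.147 to 0.229 in M5, with a log2 difference of 0.71 and a slight overlap. The ratio of IL19 to IL20 overlapped between the groups (log2 difference 0.25). Among the transcripts of IL24, the estimated share of the gene's counts in NM_006850 was 39.3 ± 1.30% in M5_O5 and 35.6 ± 1.39% in M5, and that of XM_011509101 was 24.3 ± 0.69% and 28.9 ± 1.84% (SD, n = 4 each). These shares come from the authors' assignment of reads among overlapping transcripts and are given without a test.

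Of the receptor chains of this subfamily, 2 were higher in M5_O5 and 1 did not pass the test. IL20RB, the chain shared by the receptors for all 3 ligands, was 42.5 ± 4.66 CPM in M5_O5 and 33.8 ± 4.03 CPM in M5, a log2 fold change of 0.33 (SE 0.09; adjusted p = 0.0116 by edgeR), and it passed under all 18 alternatives. IL20RA, one of its partners, was 2.41 ± 0.39 and 1.58 ± 0.40 CPM, a log2 fold change of 0.61 (adjusted p = 0.0351), but the call was lost in 7 alternatives, among them leaving out M5_O5 replicates 1, 2 or 3 or M5 replicates 2 or 3 and cyclic loess normalization (0.35, adjusted p = 0.223). IL22RA1, the other partner and the receptor for the IL-22 in M5, had a log2 fold change of -0.30 with an interval of -0.79 to 0.20 (adjusted p = 0.330).

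IL23A (Entrez 51561), which encodes the p19 chain of IL-23, moved opposite to IL6. It had 1.74, 2.24, 2.55 and 1.55 CPM in M5_O5 and 3.65, 4.05, 3.16 and 3.68 CPM in M5. Every M5_O5 library lay below every M5 library, though on only 26 to 62 counts each. The means of 2.02 ± 0.46 and 3.63 ± 0.37 CPM gave a log2 fold change of -0.84 (SE 0.18, interval -1.23 to -0.46; adjusted p = 0.00213 by edgeR, exact permutation p = 0.0286). Within libraries, IL23A stood at 0.0628 to 0.103 of the CPM of IL6 in M5_O5 and at 0.340 to 0.549 in M5, a log2 difference of -2.50 and the widest of the 9 pairs. IL-23 also needs the p40 chain from IL12B, which was not analysed here. EBI3, which pairs with relatives of p19, was 6.77 ± 0.68 and 6.20 ± 1.01 CPM, with a log2 fold change of 0.13 and an interval of -0.16 to 0.41.

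IL17C (Entrez 27189), an epithelial member of the IL-17 family, was close to the detection limit. Its counts were 3, 1, 7 and 3 in M5_O5 and 2, 3, 2 and 3 in M5, so it was below the count filter and a change could not be shown at this depth. The means were 0.21 ± 0.15 and 0.17 ± 0.03 CPM (exact permutation p = 0.743). Its receptor gene IL17RE also had only 5 to 11 counts a library. IL17RA, the chain shared with the receptor for the IL-17A in M5, was 69.6 ± 3.51 CPM in M5_O5 and 81.9 ± 8.76 CPM in M5 (log2 fold change -0.24, adjusted p = 0.0216 by edgeR), and this call was lost in 8 of 18 alternatives, including M5_O5 replicates 1 or 4 or M5 replicates 2 or 3 left out.

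The colony-stimulating factors changed little, and CSF3 was far more abundant than CSF2. CSF3 (Entrez 1440), the main growth factor of neutrophils, had 375, 313, 339 and 325 CPM in M5_O5 and 356, 408, 413 and 363 CPM in M5. The groups overlapped through M5_O5 replicate 1. The log2 fold change was -0.19 (SE 0.07, interval -0.34 to -0.04), with an adjusted p of 0.0458 by edgeR and an exact permutation p of 0.0857. The call was lost without M5_O5 replicates 2, 3 or 4 or M5 replicates 2, 3 or 4 (adjusted p 0.0514 to 0.145), and library-size scaling gave -0.07 (adjusted p = 0.428).

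CSF2 (Entrez 1437), which acts on granulocytes and macrophages, had 7.91, 9.42, 8.36 and 7.78 CPM in M5_O5 and 7.96, 11.7, 10.003 and 10.8 CPM in M5. It did not pass the test (log2 fold change -0.28, SE 0.12, interval -0.54 to -0.02, adjusted p = 0.0877 by edgeR, exact permutation p = 0.0857), but it did without M5 replicate 1 (-0.37, adjusted p = 0.00954). The ratio of CSF2 to CSF3 differed by -0.08 on the log2 scale with overlapping groups. IL6, in contrast, stood at 0.0693 to 0.0744 of the CPM of CSF3 in M5_O5 and at 0.0175 to 0.0302 in M5 (log2 difference 1.82). The receptor genes CSF2RB and CSF3R had 0 counts in all 8 libraries, which allows at most 0.177 to 0.219 CPM in a library, and CSF2RA had 0 to 6 counts.

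**Figure D3:**
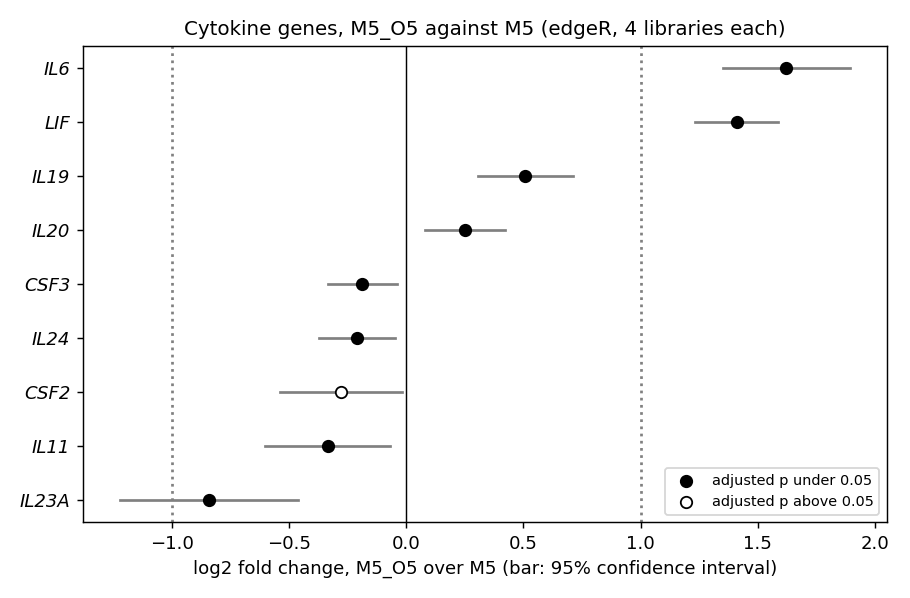
Log2 fold change of each tested cytokine gene, M5_O5 relative to M5 by title, from the edgeR fit; points are estimates and bars are 95% confidence intervals, with dotted lines at a 2-fold change and an open point where the adjusted p was above 0.05. IL6 (1.62) and LIF (1.41) lie past the 2-fold line, IL23A (-0.84) is the lowest, and the remaining genes lie between -0.34 and 0.51.

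Measured per length, the 10 genes spanned a wide range of levels. In M5_O5 the order by mean TPM was CSF3 (470.3 ± 49.95), IL24 (400.1 ± 16.1), IL19 (233 ± 29.3), IL6 (43.7 ± 4.65), CSF2 (29.1 ± 2.37), IL20 (26.8 ± 0.48), LIF (22.6 ± 1.68), IL11 (4.80 ± 0.59), IL23A (4.35 ± 0.72) and IL17C (0.45 ± 0.32). Only the neighbours IL11 and IL23A had overlapping ranges there. In M5 the order was CSF3 (492 ± 23.6), IL24 (431 ± 19.6), IL19 (148 ± 23.7), CSF2 (32.2 ± 3.44), IL20 (20.8 ± 3.15), IL6 (13.9 ± 4.05), LIF (7.75 ± 0.44), IL23A (6.93 ± 0.71), IL11 (5.57 ± 0.95) and IL17C (0.33 ± 0.06). IL6 stood at rank 4 in M5_O5 and at rank 6 in M5. Among genes with any count in the 8 libraries, it exceeded 82.98% in M5_O5 and 62.62% in M5. In M5 the ranges of IL20 and IL6, of LIF and IL23A and of IL23A and IL11 overlapped.

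**Figure D4:**
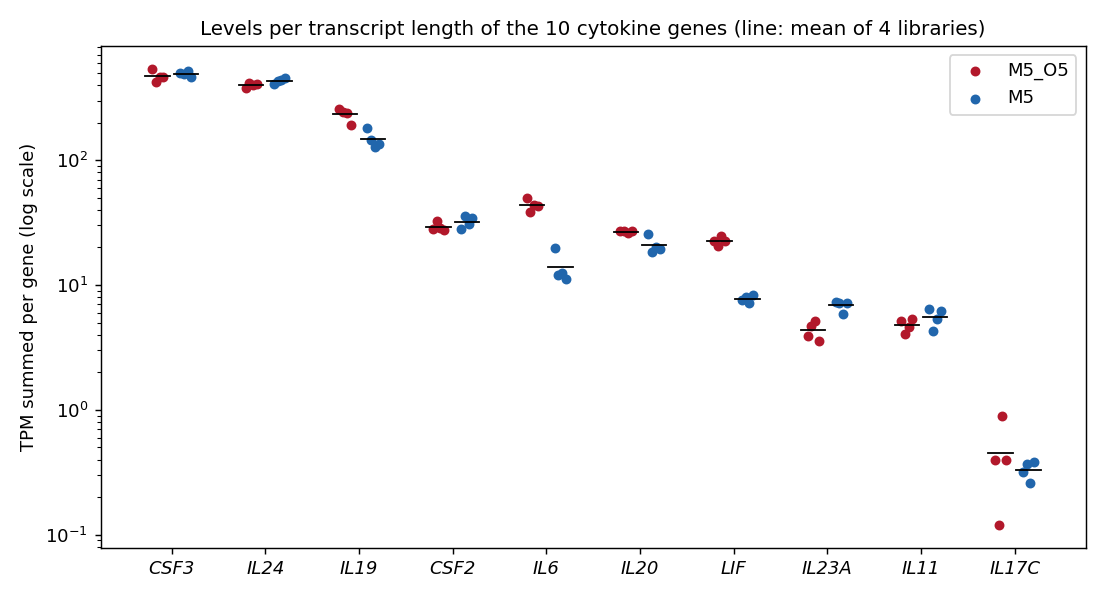
Level of each cytokine gene in TPM on a log axis, 1 point a library with a line at the mean of 4 libraries, ordered by the mean over all libraries. CSF3, IL24 and IL19 lie above 100 TPM in every library, IL17C stays below 1 TPM, and IL6 and LIF are the genes whose groups are furthest apart.

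Short-lived cytokine mRNAs often carry AUUUA motifs in the 3′ UTR, which recruit proteins that speed or slow their decay. All 10 members lay above the median density of 1.342 ATTTA per 1000 bases over 18838 genes in GENCODE 29, from 2.185 in LIF to 25.157 in CSF2. IL6, which was higher in M5_O5, had 6 of these motifs in 429 bases (13.986 per 1000). IL23A, which was lower, had 4 in 306 bases (13.072 per 1000). LIF had 7 in 3204 bases and IL19 had 1 in 359 bases (2.786 per 1000), the 2 lowest densities, and both were higher in M5_O5. The longer form TATTTAT was present in every member but IL19, beside 27.8% of all genes. The densities of the 4 higher members (2.185 to 13.986) spanned those of the 4 lower ones (5.562 to 13.072). Decay of the mRNAs was not measured, and the part of these motifs in the differences was not tested.

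Of 14 receptor genes 8 were tested, of which 2 were higher (19.5% of all genes were) and 1 was lower (17.6% of all genes) at an adjusted p under 0.05 (the IL20RB, IL20RA and IL17RA described above), with a median log2 fold change of -0.06. IL6ST, which encodes gp130, was 254 ± 17.3 CPM in M5_O5 and 248 ± 24.7 CPM in M5, with a log2 fold change of 0.03, an interval of -0.13 to 0.19 and an adjusted p of 0.769 by edgeR. Its partners IL6R (-0.15, interval -0.34 to 0.04) and LIFR (0.14, interval -0.23 to 0.51) did not pass either. IL23R reached at most 1 count and IL12RB1 at most 6.

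Of 23 related cytokine genes 7 had enough counts, of which 2 were higher and none was lower, beside 19.5% and 17.6% of all genes. The count of lower genes was also 0 at an unadjusted p with edgeR and with DESeq2. CSF1, the growth factor of macrophages, was 18.4 ± 1.59 CPM in M5_O5 and 12.3 ± 1.11 CPM in M5 (log2 fold change 0.59, adjusted p = 0.000281 by edgeR) and passed under all 18 alternatives. CTF1, which encodes the gp130 cytokine cardiotrophin 1, was 1.70 ± 0.17 and 1.03 ± 0.16 CPM on 13 to 32 counts a library (0.72, adjusted p = 0.0132), and the call was lost with cyclic loess (0.41, adjusted p = 0.137) and with DESeq2 (0.71, adjusted p = 0.0541). The gp130 cytokine CLCF1 was 18.6 ± 1.59 and 21.3 ± 2.98 CPM (log2 fold change -0.20, interval -0.42 to 0.01).

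Genes known to control these cytokines leaned lower in M5_O5. Of 26 such transcription factors, inhibitors and mRNA-binding proteins, all tested, 16 were lower (17.6% of all genes were), none was higher, and the median log2 fold change was -0.21. No gene of the list was higher at an unadjusted p with edgeR or DESeq2 either. With library-size scaling 10 were lower, with cyclic loess 10, and on the log2(TPM + 1) scale 9. FOSB, part of the AP-1 factor, was 4.12 ± 0.64 CPM in M5_O5 and 6.30 ± 0.15 CPM in M5 (log2 fold change -0.61, adjusted p = 0.00212 by edgeR). Its partner JUN fell by 0.40 on the log2 scale (adjusted p = 0.00095), and RELA, the p65 subunit of NF-κB, fell by 0.43 (171 ± 12.6 against 232 ± 25.0 CPM, adjusted p = 0.000656). ZFP36L1, which promotes the decay of mRNAs with AUUUA motifs, fell by 0.50 (358 ± 17.8 against 505 ± 41.1 CPM, adjusted p = 6.53e-05). NFKBIZ, the NF-κB cofactor that IL-17A induces in keratinocytes, had a log2 fold change of -0.01 with an interval of -0.12 to 0.09 and an adjusted p of 0.856, and its sign changed with the scaling.

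Among genes that these cytokines induce through STAT3, more were lower in M5_O5 than higher. Of 19 listed and tested, 3 were higher and 9 lower at an adjusted p under 0.05, beside 19.5% and 17.6% of all genes. The share that was higher was thus near that of all genes, and the median log2 fold change was -0.19. With library-size scaling 4 were higher and 7 lower, with cyclic loess 3 and 5, and on the log2(TPM + 1) scale 4 and 4. LBP, which encodes an acute-phase protein that binds bacterial lipopolysaccharide, was the only one past 2-fold, at 4.29 ± 0.46 CPM in M5_O5 and 1.56 ± 0.09 CPM in M5 (log2 fold change 1.45, adjusted p = 1.30e-05 by edgeR). The kinase gene PIM2 and the growth regulator MYC were also higher (0.56, adjusted p = 0.00202, and 0.47, adjusted p = 0.000156). In the other direction, PIM1 fell by 0.69 (adjusted p = 0.000203), the antimicrobial S100A7 by 0.58 (adjusted p = 0.00391), the hyperproliferation keratin KRT16 by 0.51 (adjusted p = 5.83e-05) and the survival gene MCL1 by 0.37 on the log2 scale (adjusted p = 0.00027). The pair PIM1 and PIM2 thus moved in opposite directions.

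**Figure D5:**
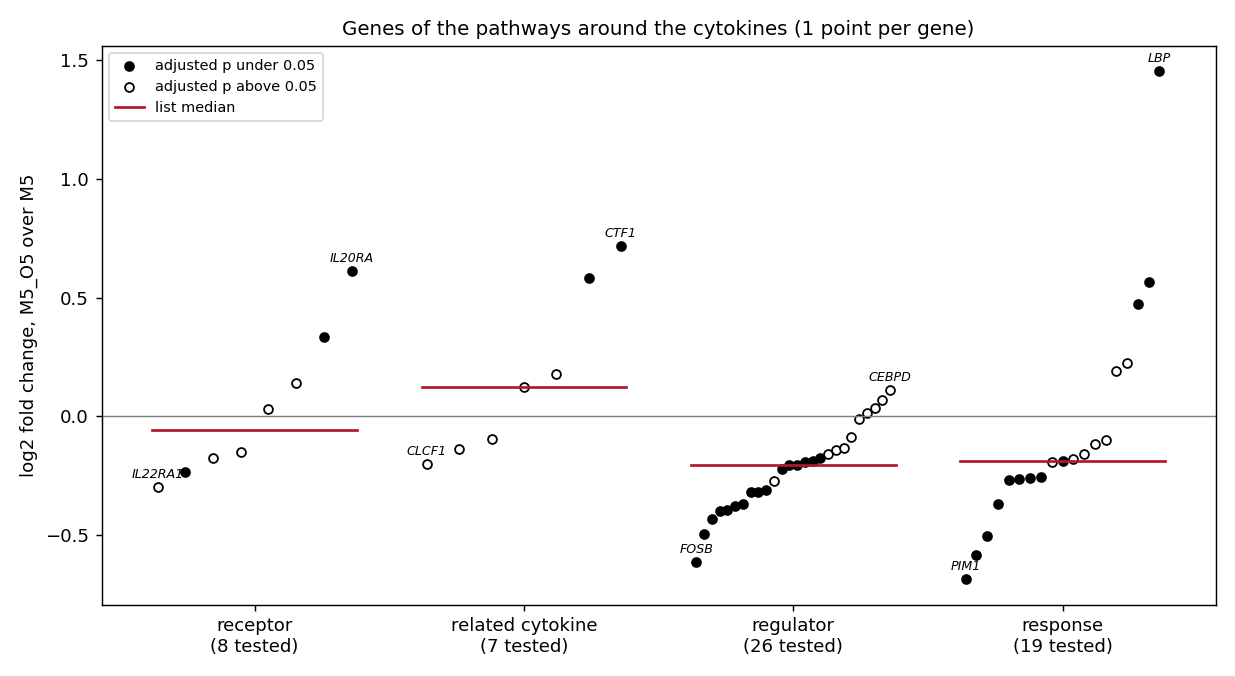
Log2 fold change (M5_O5 relative to M5 by title) of every tested gene in the receptor, related cytokine, regulator and response lists, 1 point a gene, filled where the adjusted p was under 0.05; the lowest and highest gene of each list are named, and a red line marks the list's median. No filled point of the regulator list lies above 0, while the response list spans PIM1 (-0.69) to LBP (1.45).

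Across the 8 libraries, the genes whose log2(CPM + 1) followed IL6 most closely were NQO1 (Pearson r = 0.9993), HEG1 (0.9968), ECI2 (0.9968), CCL2 (0.9963) and BEX3 (0.9962), out of 11967 genes whose mean reached 1 CPM. The libraries behind each value share the difference between groups, and all 5 genes were higher in M5_O5, by log2 fold changes of 1.12, 1.29, 0.27, 1.76 and 1.18, respectively. CCL2, a chemokine that attracts monocytes, had the fold change nearest to that of IL6, and NQO1 encodes an enzyme that detoxifies quinones.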

How the data were processed

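The series holds 8 RNA-seq libraries of HaCaT cells, 4 in each group, and groups were taken from the titles. After read filtering, the authors aligned with HISAT2 2.1.0 and deposited an estimated count, a TPM and an FPKM value per transcript and library. The counter is given differently in 2 sources: StringTie in the methods, and RSEM 1.2.8 with Bowtie2 2.2.5 in the submitters' processing notes, which also name mm10, a mouse build, although the 86639 transcripts listed are human RefSeq entries. The deposited columns of group means were not used, nor was FPKM. Counts were summed over the transcripts of a gene and rounded (12.553% of the gene sums were off a whole number by over 0.02). Reads shared between overlapping transcripts were divided by the authors' estimate, so shares of transcripts are less certain than gene totals. Names came from the RefSeq table of GRCh38.p14 (17072 identifiers matched, 59 did not).

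Counts were tested with edgeR 4.0.16 (R 4.3.3): TMM scaling, filterByExpr (12434 genes), quasi-likelihood test and Benjamini-Hochberg adjustment over all genes tested. A call needed an adjusted p under 0.05 together with a 2-fold difference or more. The biological coefficient of variation was 7.42%. Exact two-sided permutation tests over the 8 libraries (SciPy 1.17.1) were run on the CPM of single members. Depth limits low genes: 3 counts, the limit that a count of 0 allows, correspond to 0.177 to 0.219 CPM, counting error only. Alternatives were RLE size factors, library size only, cyclic loess with limma 3.58.1, no count filter, at least 10 counts in every library, DESeq2 1.42.0, limma on log2(TPM + 1) and log2(TPM + 0.1) for genes with a mean of at least 0.5 TPM, the replicate number as a block, no fold threshold, and each library left out in turn. In simulated counts for the same 12434 genes with 200 changed, edgeR recovered 198 with 1 false call. All planted changes were well above 2-fold, and recovery of smaller ones, near or below 2-fold, was not tested. Far fewer genes were changed there than the 2420 higher and 2192 lower that passed the adjusted p in the real libraries.

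Replicates differed by more than sampling noise (chi-square per gene of 2.027 or more), so all were counted. This value was 10.348 to 16.491 for pairs with M5 replicate 1 and 2.027 to 4.059 for the other M5 pairs. It was 7.115 to 11.096 for pairs with M5_O5 replicate 1 and 3.052 to 7.145 for the other M5_O5 pairs. Deviations from the group means correlated at -0.006 to 0.278 between same-numbered libraries of the 2 groups. M5_O5 replicates 1 and 2 correlated best with the M5 library of their own number (0.278 and 0.175). M5_O5 replicates 3 and 4 correlated best with M5 replicates 2 and 1 (0.34 and 0.189). Numbers were not taken to pair libraries, and a fit with the number as a block is among the alternatives.

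The members and the gene lists were chosen with earlier results of these data known, and the 9 ratios after the values were seen. Besides all members, the text names list genes with an adjusted p under 0.05 (at most the 4 largest each way per list), IL6ST, IL12B and NFKBIZ, and the 5 genes most correlated with IL6 and with CSF3. IL6R, LIFR, IL22RA1, EBI3, CLCF1 and receptors with few counts were named for their roles after values were seen.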

Additional observations from a re-analysis of the deposited data

Results flagged for a closer look

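In 3 of the 20 sets of 4 libraries examined for the cytokine genes (10 genes in 2 groups), 1 library stood apart from the other 3 by Dixon's test. Chance alone gives about 1 in 20. IL6 was 10.73 CPM in M5 replicate 1, against 6.79 to 7.38 CPM in the other M5 libraries, and without that library its log2 fold change was 1.78. IL24 was 358.9 CPM in the same library, against 440.2 to 450.2 CPM in the others, and without it the log2 fold change was -0.28. M5 replicate 1 also had the lowest total count of the series, 13708044, and the part of depth in these values was not tested. LIF was 55.06 CPM in M5_O5 replicate 3, against 46.73 to 47.72 CPM in the other M5_O5 libraries, and its log2 fold change without that library was 1.35.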

How the results depend on the processing

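IL6, LIF, IL19 and IL23A kept their direction and passed the adjusted p under all 18 alternatives, with log2 fold changes of 1.52 to 1.78, 1.35 to 1.53, 0.46 to 0.66 and -1.09 to -0.57. The number of cytokine genes called was 2 under every alternative but cyclic loess (3, with IL23A) and no fold threshold (8), and was 2 whichever library was left out. The numbers of all genes called higher and lower were 213 and 79 with cyclic loess and 2420 and 2192 without a fold threshold. With log2(TPM + 1) they were 146 and 8. The number called lower was 25 with library size only, 71 with no filter and 22 with log2(TPM + 0.1). Leaving out 1 library gave 334 to 465 higher and 41 to 52 lower.

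CSF2 passed with cyclic loess (-0.41), with the unadjusted p of DESeq2 (-0.29) and without M5 replicate 1 (range -0.37 to -0.20 when 1 library was left out). CSF3 did not pass with library size only (-0.0696), cyclic loess (-0.0375), at least 10 counts (-0.18), log2(TPM + 1) (-0.0694) or log2(TPM + 0.1) (-0.0695), with -0.24 to -0.15 when 1 library was left out. IL24 did not pass under the same settings (-0.0914, -0.0521, -0.20, -0.11 and -0.11), with -0.28 to -0.17 when 1 library was left out. IL11 did not pass with library size only (-0.22), DESeq2 (-0.35), log2(TPM + 1) (-0.17) or log2(TPM + 0.1) (-0.20), with -0.42 to -0.27 when 1 library was left out, and IL20 did not with cyclic loess (0.16), with 0.22 to 0.31 when 1 library was left out. The median of all genes was 0.13 with library-size scaling and 0.12 and 0.13 on the TPM scales, against 0.01. The cause of the other changes was not tested.

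The number of receptor genes past the adjusted p was 1 with cyclic loess and 1 to 3 when 1 library was left out (1 without M5_O5 replicate 1, M5 replicate 2 or M5 replicate 3). For related cytokines it was 1 with cyclic loess and with DESeq2, and 2 to 3 when 1 library was left out. For regulators it was 10 with library size only and with cyclic loess, 9 on either TPM scale, and 12 to 18 when 1 library was left out. Values that did not pass and changed sign were DCAF8 (0.0551 with library size only, 0.0091 with cyclic loess, 0.0619 and 0.0636 on the TPM scales), IL6ST (-0.0284 without M5 replicate 2, 0.0884 without M5 replicate 1, and up to 0.17 with cyclic loess) and NFKBIZ (0.10 with library size only and with cyclic loess, 0.11 on either TPM scale, 0.0081 without M5_O5 replicate 4, down to -0.0378 without M5_O5 replicate 1). With the replicate number as a block, 359 genes were called higher and 41 lower and no cytokine gene changed its call; not every library correlated best with its own number. Depth limited IL17C, with at most 7 counts, and IL23A, with 26 to 62.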

Other observations

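CSF3, the cytokine gene with the highest level per length (mean TPM), was followed across the 8 libraries most closely by LAMTOR5 (Pearson r = 0.9919), S100A2 (0.9737), TSC22D4 (0.9656), DCAF8 (0.9541) and TAF10 (0.943), as a description over libraries that share the group difference. Of these, S100A2, an epidermal calcium-binding protein gene, and TAF10, a subunit gene of the transcription factor TFIID, passed the adjusted p, with log2 fold changes of -0.25 and -0.25 (adjusted p = 0.0373 and 0.00993 by edgeR). S100A2 passed under only 8 of 18 alternatives, and lost the call with library size only (-0.13), with cyclic loess (-0.07), on both TPM scales (-0.13) and without M5_O5 replicates 2, 3 or 4 or M5 replicates 2, 3 or 4. TAF10 passed under 15 of 18, losing the call with library size only (-0.13) and on both TPM scales (-0.12).

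The estimated shares of CSF3 transcripts also differed in level between the groups, without a test. NM_172219 held 83.3 ± 1.14% of the gene's counts in M5_O5 and 79.7 ± 1.32% in M5, and NM_001178147 held 7.82 ± 0.94% and 11.8 ± 1.22% (SD, n = 4 each). The main transcript of IL6, NM_000600, held 66.3 ± 4.87% and 63.7 ± 4.28% of its counts, and that of LIF, NM_002309, 90.7 ± 3.91% and 86.4 ± 6.76%.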
